A study of Mus musculus with 80 samples.

Results

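The 9 genes described here are 6 aldehyde dehydrogenases (Aldh3a2, Aldh1a1, Aldh1a7, Aldh2, Aldh9a1 and Aldh1b1), the vanins Vnn1 and Vnn3, and the retinol saturase Retsat. They were taken by symbol from the gene tables of a liver RNA-seq study, and all 9 had a row among the 18877 genes of its DEHP table and the 17672 genes of its DCA table. The animals were male B6C3F1 mice, a hybrid used in toxicology, 4 weeks old per the labels. Di(2-ethylhexyl) phthalate (DEHP), a plasticiser, was mixed into the feed at 0, 1500, 3000 or 6000 ppm for 7 days (4 animals a dose, 16 in all, livers taken in 2013). Dichloroacetic acid (DCA), which forms when water is chlorinated, was dissolved in the drinking water at 0, 1, 2 or 3.5 g/L (6 animals a dose, 24 in all, livers taken in 1994), and the labels used here do not state for how long. Each liver was sequenced from an FFPE block (formalin-fixed and paraffin-embedded) of particular lobes and from a frozen piece of mixed lobes. This gave 80 libraries of total RNA, depleted of ribosomal RNA but not free of it.

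Aldehyde dehydrogenases oxidise aldehydes to acids and differ in the aldehyde they take and in the compartment where they work. Vanins split pantetheine, a breakdown product of coenzyme A, into pantothenate (vitamin B5) and cysteamine, and retinol saturase reduces a double bond of retinol. Several genes of fatty acid handling in liver are switched on by PPAR alpha, a receptor activated by fatty acids and by peroxisome proliferators such as DEHP, and Aldh3a2, Vnn1 and Retsat are known among its responsive genes in mouse.

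The genes lie on mm10 (GENCODE M21) at chr11:61223417-61267464 for Aldh3a2 (minus strand), chr5:121566027-121593824 for Aldh2 (minus strand), chr1:167349991-167368532 for Aldh9a1, chr4:45799022-45804604 for Aldh1b1 and chr6:72598475-72608425 for Retsat. Aldh1a1 (chr19:20492715-20643465, plus strand) and Aldh1a7 (chr19:20692953-20727562, minus strand) are neighbours 49487 bases apart, and Vnn3 (chr10:23851462-23869843) and Vnn1 (chr10:23894688-23905343) are neighbours 24844 bases apart, both on the plus strand. The counts used below are of whole genes and are not resolved to exons or introns. The coding sequences of Aldh1a1 and Aldh1a7 were identical at 1377 of 1503 aligned bases (91.62%), and 151 of the 2017 windows of 50 bases in the Aldh1a7 transcript (7.486%) were also found in Aldh1a1, so the split of reads between this pair is uncertain. Vnn1 and Vnn3 were identical at 993 of 1474 aligned coding bases (67.37%) and shared no such window.

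Promoter sequences are given for the neighbours Aldh1a1 and Aldh1a7, and for Retsat and Aldh9a1 as examples that hold motifs searched for. Any part of these letters in the changes of the genes was not tested. They are the 250 bases before the start of transcription in RefSeq (GRCm38.p6), which had an entry for 7 of the 9 genes. The run in capitals of the first pair is identical in both genes, is 65 bases long and lies at the same place, 94 to 30 bases before each start. Aldh1a1 is read from a start inside the annotated gene at chr19:20601718-20601967 (plus strand), and Aldh1a7 at chr19:20727557-20727806 (minus strand).
Aldh1a1: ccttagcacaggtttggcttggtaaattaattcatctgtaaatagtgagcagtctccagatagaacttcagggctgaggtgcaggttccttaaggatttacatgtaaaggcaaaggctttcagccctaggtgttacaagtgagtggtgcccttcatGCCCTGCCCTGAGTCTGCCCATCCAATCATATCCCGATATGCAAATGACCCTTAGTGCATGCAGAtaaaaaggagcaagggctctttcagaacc
Aldh1a7: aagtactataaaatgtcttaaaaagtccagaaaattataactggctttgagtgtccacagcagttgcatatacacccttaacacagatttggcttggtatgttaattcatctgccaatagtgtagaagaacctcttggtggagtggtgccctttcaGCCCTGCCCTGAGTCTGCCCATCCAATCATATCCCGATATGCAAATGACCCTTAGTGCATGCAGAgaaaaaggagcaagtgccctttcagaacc
Over 235 aligned bases the pair was identical at 73.62%. RefSeq also places a start of Aldh1a1 shortly before the start of the gene as annotated by GENCODE (window chr19:20492333-20492582, plus strand). That window shared no run longer than 8 bases with Aldh1a7 and was identical at 60.26% of 229 aligned bases. In the next pair, Aldh9a1 (chr1:167349741-167349990, plus strand) and Retsat (chr6:72598352-72598601, plus strand), capitals mark the motifs found.
Aldh9a1: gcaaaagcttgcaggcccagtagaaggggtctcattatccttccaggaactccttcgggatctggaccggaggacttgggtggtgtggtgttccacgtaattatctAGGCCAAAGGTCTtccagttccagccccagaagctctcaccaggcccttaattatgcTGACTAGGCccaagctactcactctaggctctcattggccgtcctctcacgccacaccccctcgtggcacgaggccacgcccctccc
Retsat: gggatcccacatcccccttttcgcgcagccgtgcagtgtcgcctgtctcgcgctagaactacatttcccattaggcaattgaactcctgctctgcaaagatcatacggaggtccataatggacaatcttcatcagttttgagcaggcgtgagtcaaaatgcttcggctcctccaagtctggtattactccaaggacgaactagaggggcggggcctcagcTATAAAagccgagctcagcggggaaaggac
Both strands were searched for repeats of the hexamer AGGTCA, 1 base apart (DR1, bound by PPAR alpha with RXR) or 4 bases apart (DR4, bound by CAR with RXR), each with up to 2 mismatches, for the core TGACNNNGC of the NRF2 element and for TATAAA. Matches of DR1 and DR4 can overlap. The first capitals in Aldh9a1 match DR1 with 2 mismatches and the second match TGACNNNGC. Those in Retsat spell TATAAA, 30 to 25 bases before its RefSeq start, which lies inside the gene as annotated by GENCODE. Aldh1a7 spells TATAAA too, 244 to 239 bases before its start (in lower case above), Vnn3 holds TGACNNNGC on the other strand, 82 to 74 bases before its start, and no match was found in Aldh3a2, Aldh1b1 or either window of Aldh1a1. Of all 32851 mouse promoters of this length, 3.24% hold such a DR1, 2.57% such a DR4, 10.2% TGACNNNGC and 12.4% TATAAA. A match describes letters only.

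Total counts had medians of 16405450 per library in DEHP FFPE, 22009498 in DEHP frozen, 504138.5 in DCA FFPE and 14686415 in DCA frozen, and in DCA FFPE a median of 56.5% of them belonged to the ribosomal RNA row Rn45s. Hepatocyte markers were abundant, with a summed level in frozen liver of 75863 to 90905 CPM at 6000 ppm DEHP and 103947 to 113515 CPM in its controls, whereas lymphocyte markers summed to at most 2.26 CPM there. CPM is the read count relative to library size after TMM scaling. FPKM values are the authors' own and were not TMM-scaled here. They are per length of transcript, so that genes can be set side by side. In bulk liver, fewer cells of a type and less RNA per cell cannot be told apart. The animals are the replicates, and p-values for doses set a difference against the spread between animals of a dose. For FFPE against frozen tissue, with the animal as block, the spread is that of the difference within animals. For a line on dose it is the spread around the line. Run and lane are names used here for the code before the slash and the L number in the deposited column names. What these parts stand for is not stated there.

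In untreated frozen liver the 9 genes spanned a wide range of levels per length. Over the 4 DEHP controls, Aldh1a1, which oxidises retinaldehyde in the cytosol, had the highest FPKM (median 323, 295 to 375), ahead of mitochondrial Aldh2, the main acetaldehyde dehydrogenase (median 247, 193 to 260), and these ranges did not overlap. Aldh9a1, which acts in carnitine synthesis, followed with a median of 53.6 FPKM (47.8 to 63.0), then Aldh1a7, the close relative of Aldh1a1, with 49.2 (42.0 to 60.4), and Retsat with 41.8 (28.5 to 117). Aldh3a2, the fatty aldehyde dehydrogenase of the endoplasmic reticulum, had 21.5 FPKM (15.6 to 57.5). These 4 neighbours in the order overlapped one another. Aldh1b1, the mitochondrial relative of Aldh2, had 15.1 FPKM (11.6 to 20.8), Vnn3 had 11.2 (7.88 to 20.5) and Vnn1 had 3.66 (1.63 to 18.9), again with overlapping ranges. At 6000 ppm DEHP the order was different. Aldh1a1 stayed first with a median of 1016 FPKM (644 to 1078), but Aldh3a2 was second with 540 (216 to 605) and Retsat followed with 530 (325 to 585), above Aldh2 at 237 FPKM (216 to 272). The range of Aldh1a1 did not overlap that of another gene there, whereas Aldh3a2 overlapped both Retsat and Aldh2. At 3.5 g/L DCA the leading genes were Aldh1a1 (median 833 FPKM), Retsat (422) and Aldh3a2 (298), and at 0 g/L they were Aldh1a1 (342), Aldh2 (252) and Aldh1a7 (70.2).

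In frozen liver of DEHP animals, 7 of the 9 genes were higher than control at 1500, 3000 and 6000 ppm alike, and Aldh2 and Aldh1b1 were not called at any of these doses. Among all 13802 genes tested, 6.48%, 14.7% and 11.8% were called at those doses in either direction, and 4.34%, 8.17% and 7.05% were higher (edgeR quasi-likelihood test, Benjamini-Hochberg adjusted p under 0.05). The median log2 fold change of the 9 genes was 1.04, 1.25 and 1.40, against -0.03 over all genes at each dose. All 4 treated libraries lay above every control for the same 7 genes at each dose, as did 7.5%, 10.8% and 8.14% of all genes. Aldh3a2, Vnn1 and Retsat changed most, and the smallest of their folds was 6.36, for Retsat at 1500 ppm.

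Aldh3a2, which turns long-chain fatty aldehydes into fatty acids, had 175, 83.8, 51.7 and 51.3 CPM at 0 ppm, 878, 1172, 1051 and 906 CPM at 1500 ppm, 1548, 1359.9, 1216 and 1535 CPM at 3000 ppm, and 655, 1672, 1546 and 1856 CPM at 6000 ppm. The groups at 1500 ppm and above did not overlap the controls, and the lowest treated value belonged to animal 29B at the top dose. Its log2 fold change was 3.47 ± 0.37 at 1500 ppm, 3.97 ± 0.38 at 3000 ppm and 3.98 ± 0.38 at 6000 ppm (± SE, edgeR adjusted p = 7.13e-05, 1.12e-05 and 1.06e-05), a 15.8-fold difference at the top dose.

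Vnn1, a pantetheinase anchored to the cell surface, had 44.2, 9.32, 3.86 and 8.94 CPM at 0 ppm, 151, 157, 188 and 152 CPM at 1500 ppm, 234, 205, 235 and 223 CPM at 3000 ppm, and 155, 272, 277 and 297 CPM at 6000 ppm. Control animal 32A stood several times above the other controls and still below every treated animal. The log2 fold change was 3.29 ± 0.51, 3.76 ± 0.52 and 3.92 ± 0.52 with rising dose (edgeR adjusted p = 0.00115, 0.000202 and 0.000139). Without 32A it was larger, at 4.48 ± 0.29, 4.94 ± 0.29 and 5.11 ± 0.30, and with run as a term it was 4.67 ± 0.62 at 6000 ppm. DESeq2 gave Vnn1 no adjusted p in these libraries and called the other 6 of the 7 genes at each dose. Retsat had 219, 100.3, 53.8 and 65.8 CPM at 0 ppm, 717, 639.9, 708.2 and 726 CPM at 1500 ppm, 1065, 715, 888 and 1048 CPM at 3000 ppm, and 605, 954, 985 and 1100.0 CPM at 6000 ppm. Here too 32A was the highest control and 29B the lowest animal at 6000 ppm, without overlap between treated and control animals. The log2 fold changes were 2.67 ± 0.34, 3.08 ± 0.34 and 3.05 ± 0.34 (edgeR adjusted p = 0.000265, 4.35e-05 and 3.55e-05), and without 32A they were 3.26 ± 0.24, 3.67 ± 0.25 and 3.65 ± 0.25.

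The cytosolic pair Aldh1a1 and Aldh1a7 rose together by a smaller factor. Aldh1a1 had 678, 608, 743 and 639.8 CPM at 0 ppm, 1401, 1438, 1310.0 and 1259.8 CPM at 1500 ppm, 1933, 1924, 1499 and 1778 CPM at 3000 ppm, and 1259, 2068, 1980.3 and 1982 CPM at 6000 ppm. Aldh1a7 stood lower, at 108, 87.8, 121 and 95.3 CPM in controls and at 195, 306, 262 and 324 CPM at 6000 ppm. At that dose Aldh1a1 was 2.73-fold and Aldh1a7 2.64-fold higher (log2 fold changes 1.45 ± 0.15 and 1.40 ± 0.14, edgeR adjusted p = 1.98e-05 and 1.79e-05). With their rows summed, which removes the uncertain split, the pair rose by 1.44 ± 0.15 on the log2 scale (edgeR adjusted p = 2.07e-05). Vnn3, the second vanin, had 35.8, 23.5, 16.97 and 14.9 CPM in controls and 40.8, 55.6, 54.2 and 57.6 CPM at 6000 ppm, a log2 fold change of 1.19 ± 0.23 (edgeR adjusted p = 0.00262). Aldh9a1, which oxidises trimethylaminobutyraldehyde on the way to carnitine, had 173, 148, 156 and 142 CPM in controls and 197, 236, 253 and 279 CPM at 6000 ppm. Its log2 fold change was the smallest of the 7, at 0.67 ± 0.11, 0.65 ± 0.11 and 0.64 ± 0.11 with rising dose (edgeR adjusted p = 0.0022, 0.00114 and 0.00137).

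Neither mitochondrial enzyme of the 9 genes was called. Aldh2 had 555, 534, 551 and 445 CPM at 0 ppm and 524, 476, 452 and 584 CPM at 6000 ppm, with groups that overlapped at every dose. Its difference at 6000 ppm was -0.03 on the log2 scale, with a 95% interval of -0.31 to 0.24. Aldh1b1 had 25.9, 30.2, 46.8 and 41.6 CPM at 0 ppm and 30.2, 58.4, 26.8 and 41.4 CPM at 6000 ppm. Its difference at that dose was 0.12 on the log2 scale, with an interval of -0.38 to 0.61, and its groups overlapped too.

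**Figure D1:**
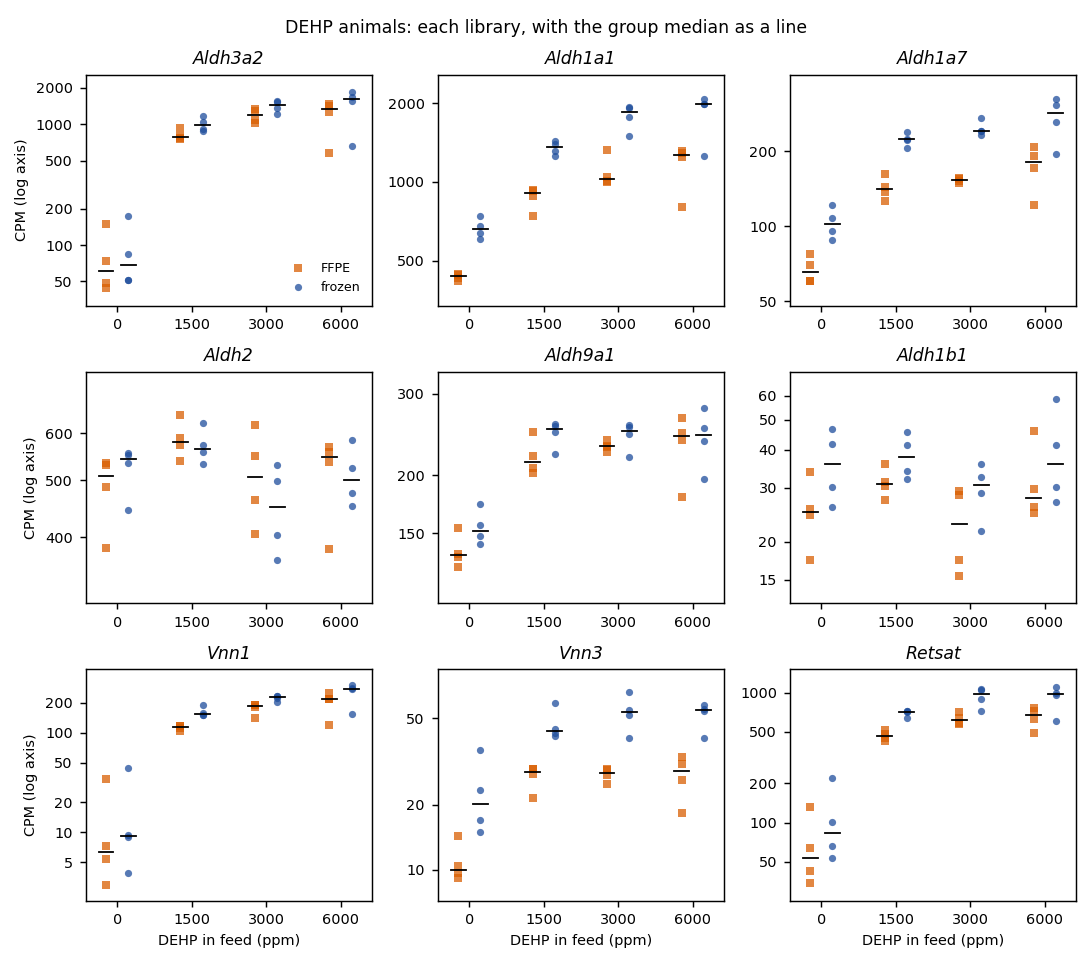
Level of each gene in every DEHP animal (CPM, log axis) by dose in the feed (ppm). Squares are FFPE libraries, circles frozen libraries and lines group medians (4 animals a dose), and 7 genes sit above their controls at every dose whereas Aldh2 and Aldh1b1 overlap them, apart from Aldh2 in FFPE at 1500 ppm.

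Above 1500 ppm no further step was called. Between 3000 and 1500 ppm, and between 6000 and 3000 ppm, edgeR called 0 of the 9 genes and 0% of all genes, and DESeq2 also called none of the 8 it tested. At an unadjusted p under 0.05 edgeR had 2 of the 9 genes in the first of these steps, Aldh1a1 (log2 difference 0.40 ± 0.15) and Aldh2 (-0.35 ± 0.13), and 0 in the second. The interval for Aldh3a2 between 6000 and 3000 ppm ran from -0.70 to 0.73, and that for Vnn1 from -0.81 to 1.13. A straight line on dose was called for Aldh1a1 and Aldh1a7 only, which are 2 of the 9 genes, beside 2.61% of all genes (edgeR adjusted p = 0.0191 and 0.0264). Without animal 29B the line was called for all 7 risers (Aldh3a2 3.32 over the dose range, adjusted p = 0.0371), and for none without 32A, 63A, 44A or 8C or with run as a term.

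Animal 29B was lowest at 6000 ppm for 7 of the 9 genes in FFPE and for 7 in frozen tissue, and control 32A was highest among controls for 6 of the 9 in each preparation. The 7 risers were called at each dose whichever single library was left out. Without animals 35A and 67C, whose FFPE and frozen profiles matched each other poorly, the count also stayed at 7 at each dose. Run codes were not balanced over doses. Within a run shared with controls stood 1 frozen library per dose. For Aldh3a2 it was 3.78, 4.03 and 4.82 log2 units above the mean of the controls of that run at 1500, 3000 and 6000 ppm. In frozen liver at 6000 ppm, 7 of 13 hepatocyte markers fell (median -0.55) and 0 of 10 Kupffer cell markers were called, beside 4.72% of all genes lower and 11.8% in either direction. Kupffer cell markers summed to 244 to 375 CPM there and 186 to 305 CPM in controls. Adipocyte and muscle markers summed to 7.66 to 146 CPM and 2.68 to 49.2 CPM. Exocrine pancreas markers (2 genes counted) summed to 8.84 to 14.9 CPM and 17.4 to 27.2 CPM. The part of these markers in the results was not tested.

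DCA in frozen liver raised Aldh3a2, Aldh1a1, Aldh1a7, Aldh9a1, Aldh1b1, Vnn1 and Retsat at 2 and 3.5 g/L and lowered Aldh2 at every dose. At 1 g/L only Aldh2 and Vnn3 were called, both lower, 2 of 9 genes beside 7.01% of all 13089 genes lower and 11.1% in either direction. At 2 and 3.5 g/L, 8 of 9 were called, 7 higher and Aldh2 lower, beside 29.2% and 43% of all genes, with 15.5% and 21.9% higher and 13.7% and 21.1% lower. The median log2 fold change of the 9 genes was 0.16, 0.78 and 0.71 at 1, 2 and 3.5 g/L, against -0.01, -0.01 and -0.02 over all genes. Every library at 2 and at 3.5 g/L lay above every control for 7 genes, as 6.2% and 11.3% of all genes did.

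Aldh3a2 ranged from 41.7 to 88.6 CPM at 0 g/L (median 68.9), from 75.4 to 121 at 1 g/L (median 96.0), from 183 to 911 at 2 g/L (median 640.3) and from 403 to 1204 at 3.5 g/L (median 878). The lowest doses overlapped, and the higher doses lay above both without overlap. Its log2 fold change was 0.55 ± 0.28, 3.20 ± 0.31 and 3.61 ± 0.31 (edgeR adjusted p = 0.206, 3.39e-08 and 1.64e-09). Vnn1 ranged from 3.43 to 8.63 CPM at 0 g/L (median 5.43), from 5.37 to 9.10 at 1 g/L (median 6.13), from 22.6 to 135 at 2 g/L (median 85.9) and from 47.5 to 132 at 3.5 g/L (median 101). Its change at 3.5 g/L was 3.97 ± 0.37 on the log2 scale, a 15.7-fold difference (edgeR adjusted p = 5.98e-09). Retsat ranged from 85.4 to 121 CPM at 0 g/L (median 109.7), from 85.3 to 119 at 1 g/L (median 94.3), from 213 to 782 at 2 g/L (median 623) and from 557 to 979 at 3.5 g/L (median 748). At 1 g/L it was -0.12 ± 0.21 from control, and at 3.5 g/L 2.78 ± 0.22 (edgeR adjusted p = 0.752 and 5.77e-10).

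Aldh2, which clears the acetaldehyde made from ethanol, fell at each DCA dose. It ranged from 440.5 to 710.2 CPM at 0 g/L (median 547), from 287 to 420.0 at 1 g/L (median 317), from 258 to 434 at 2 g/L (median 323) and from 241 to 344 at 3.5 g/L (median 277). No treated animal overlapped a control at any dose, as was so for 2.25%, 5.17% and 9.42% of all genes that were lower. The log2 fold change was -0.77 ± 0.13, -0.75 ± 0.13 and -0.999 ± 0.13 (edgeR adjusted p = 0.00071, 0.000109 and 1.26e-06). Its relative Aldh1b1 went the other way and had its highest median at 2 g/L. Medians of Aldh1b1 were 78.9, 87.2, 116 and 89.3 CPM at 0, 1, 2 and 3.5 g/L, with log2 fold changes of 0.56 ± 0.08 at 2 g/L and 0.27 ± 0.08 at 3.5 g/L (edgeR adjusted p = 1.34e-05 and 0.00974).

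Vnn3 did not follow Vnn1 under DCA. It ranged from 32.2 to 45.9 CPM at 0 g/L (median 38.5), from 21.98 to 32.4 at 1 g/L (median 28.9), from 28.9 to 40.0 at 2 g/L (median 38.0) and from 21.4 to 46.5 at 3.5 g/L (median 40.0). Only the dip at 1 g/L was called (-0.46 ± 0.13, edgeR adjusted p = 0.0283), with 5 of 6 libraries below every control. That call was lost without control 6 (adjusted p = 0.0714), without animal 53 at 1 g/L (0.0607) and with run as a term (0.0694). At 3.5 g/L the interval of its difference was -0.28 to 0.27. When the Vnn1 and Vnn3 rows were summed, the sum rose by 1.55 ± 0.23 at 3.5 g/L.

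Aldh1a1, Aldh1a7 and Aldh9a1 rose at the upper DCA doses. Aldh1a1 had medians of 686, 847, 1499.6 and 1549 CPM at 0, 1, 2 and 3.5 g/L and a log2 fold change of 1.11 ± 0.17 at the top dose (edgeR adjusted p = 7.28e-06). Aldh1a7 had medians of 143, 170.2, 246 and 230.4 CPM and a change of 0.71 ± 0.11 (edgeR adjusted p = 1.28e-05), and the summed pair changed by 1.05 ± 0.15. Aldh9a1 had medians of 162, 162, 221 and 229 CPM and a change of 0.48 ± 0.07 (edgeR adjusted p = 5.83e-06).

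**Figure D2:**
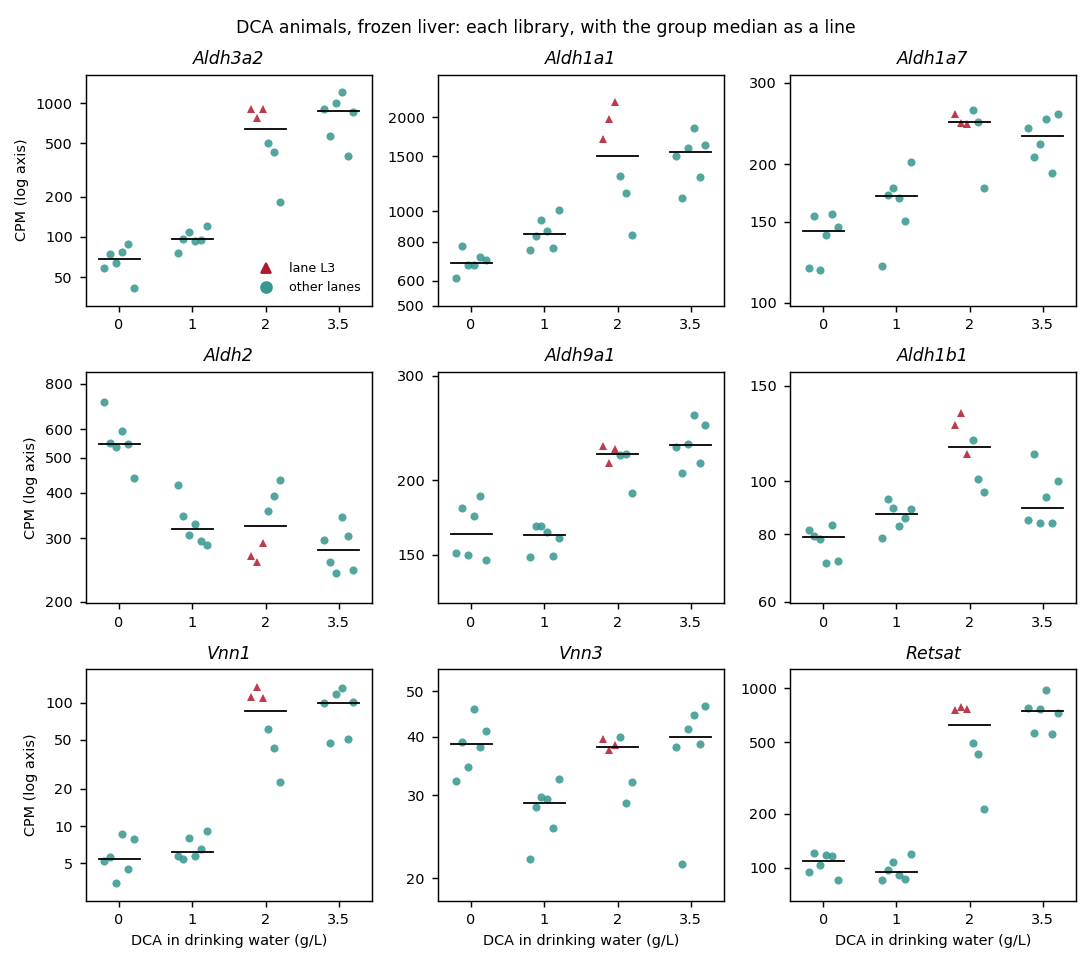
Level of each gene in frozen liver of every DCA animal (CPM, log axis) by dose in the drinking water (g/L), with 6 animals a dose and lines at group medians. Triangles are the 3 libraries of lane L3 (the L number in the column names), which lie above the other 3 at 2 g/L for Aldh3a2, Aldh1a1, Vnn1 and Retsat and below them for Aldh2. Aldh2 is lower than control at every dose whereas 7 genes are higher from 2 g/L on.

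The step between 2 and 1 g/L was called for 7 of 9 genes, all higher, beside 9.9% of all genes higher and 16.5% in either direction, with log2 differences of 2.65 ± 0.30 for Aldh3a2, 3.52 ± 0.36 for Vnn1 and 2.54 ± 0.22 for Retsat. The step between 3.5 and 2 g/L was called for 1 gene, Aldh1b1 (-0.29 ± 0.08, edgeR adjusted p = 0.0214), beside 11.2% of all genes. That call was lost without lane L3 (-0.19 ± 0.09, adjusted p = 0.203), within lane L4 (0.339), with only both groups in the fit (0.0671) and without animal 102 at 3.5 g/L (0.050007). These steps rest in part on 3 shallow libraries at 2 g/L. Those with L3 in the column name, called lane L3 here, had totals of 3067666 to 3854949, and those with L4 had 13120816 to 15660753. Aldh3a2 stood at 777 to 911 CPM in the L3 libraries and at 183 to 504 CPM in the L4 libraries. Aldh2 split the other way, at 258 to 291 CPM in L3 and 356 to 434 CPM in L4. Without lane L3, 8 genes were still called at 2 g/L against control, where Aldh3a2 was then at 2.47 ± 0.28, Vnn1 at 2.85 ± 0.32 and Retsat at 1.83 ± 0.19, against 3.20 ± 0.31, 3.72 ± 0.37 and 2.42 ± 0.22 with all libraries. There were 5 between 2 and 1 g/L, since Aldh1a1 and Aldh1b1 were lost, and the step between 3.5 and 2 g/L was then called for 4 genes, namely Aldh3a2 (1.13 ± 0.30, edgeR adjusted p = 0.0244), Vnn1 (1.11 ± 0.32, 0.0309), Retsat (0.94 ± 0.21, 0.00716) and Aldh2 (-0.50 ± 0.13, 0.0248). A straight line on dose was called for 8 of 9 genes, all but Vnn3, beside 39.3% of all genes, and that of Aldh1b1 lost its call without any 1 of 7 libraries (animals 3, 4, 5, 6 and 8 at 0 g/L, 49 at 1 g/L and 101 at 3.5 g/L, adjusted p = 0.0503 to 0.0808).

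All libraries at 3.5 g/L had the same run code as the 6 controls. They carried L4 and the controls L5 in the column names, which cannot be told apart from the dose. Within that run all 6 libraries at 3.5 g/L were above the mean of the controls for the 7 risers, by 2.62 to 4.20 log2 units for Aldh3a2. Cell type markers moved as well: 9 of 13 hepatocyte markers fell at 3.5 g/L and 2 rose (median -0.50, summed level 90827 to 117062 CPM at 3.5 g/L and 127978 to 157775 CPM in controls), 8 of 12 stellate cell markers fell, 9 of 12 pericentral markers fell, 8 of 10 Kupffer cell markers fell (summed level 159 to 241 CPM at 3.5 g/L and 298 to 407 CPM in controls), and 5 of 5 red blood cell markers fell, beside 21.1% of all genes lower. The summed level of periportal markers was lower too, at 57384 to 75552 CPM at 3.5 g/L and 76481 to 98245 CPM in controls. That of pericentral markers was 4664 to 5555 CPM and 5708 to 7241 CPM. Alb is in both the periportal and the hepatocyte list. The part of these markers in the results was not tested.

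In a single fit of all frozen libraries, the effect of 6000 ppm DEHP was set against that of 3.5 g/L DCA, each relative to its own controls. DEHP and DCA differed for 3 of 9 genes, beside 13.3% of all 13219 genes. Vnn3 differed most, by 1.20 ± 0.26 on the log2 scale (edgeR adjusted p = 0.00161), having risen under DEHP and not under DCA. The difference for Aldh2 was 0.98 ± 0.19 (edgeR adjusted p = 0.000776), where DCA lowered the gene, and that for Aldh1a7 was 0.70 ± 0.18 (edgeR adjusted p = 0.00876), where both raised it and DEHP more. The other 6 were not called. Their intervals were -0.56 to 1.32 for Aldh3a2, -0.13 to 0.83 for Aldh1a1, -0.08 to 0.42 for Aldh9a1, -0.58 to 0.32 for Aldh1b1, -1.20 to 1.13 for Vnn1 and -0.49 to 1.06 for Retsat. Study, year and chemical coincide, and the doses are in different units and routes, so these are differences between treatments against their own controls and say nothing of potency.

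**Figure D3:**
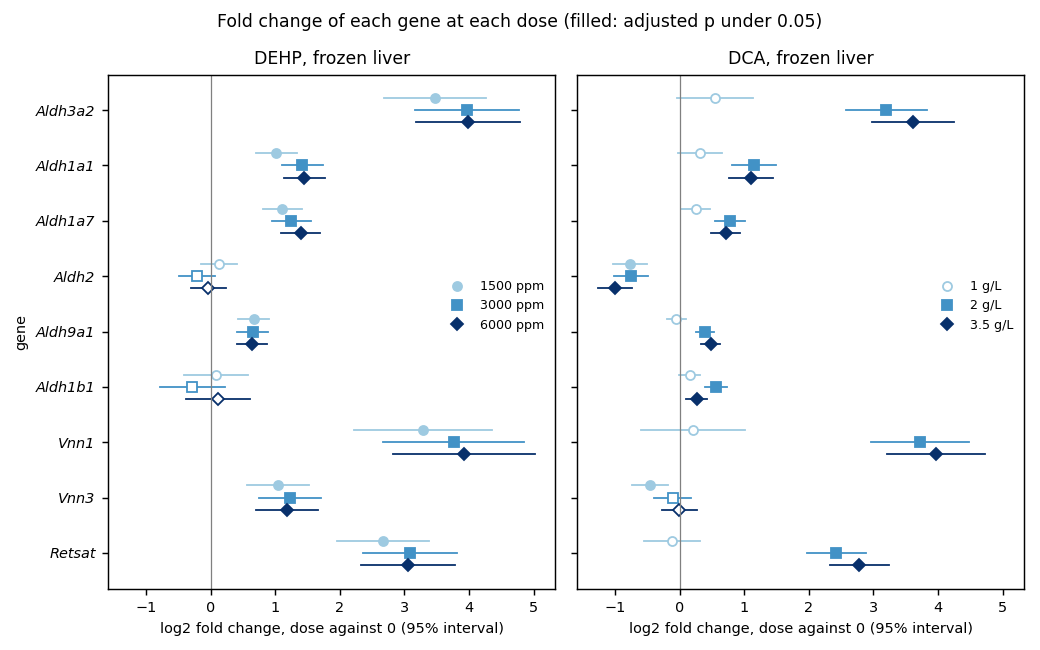
Log2 fold change of each gene against 0 at each dose in frozen liver, DEHP on the left and DCA on the right, with 95% intervals. Filled markers passed an adjusted p of 0.05, and under DEHP the 3 doses lie close together, whereas under DCA the 1 g/L values of Aldh3a2, Vnn1 and Retsat lie well below those at 2 and 3.5 g/L.

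**Figure D4:**
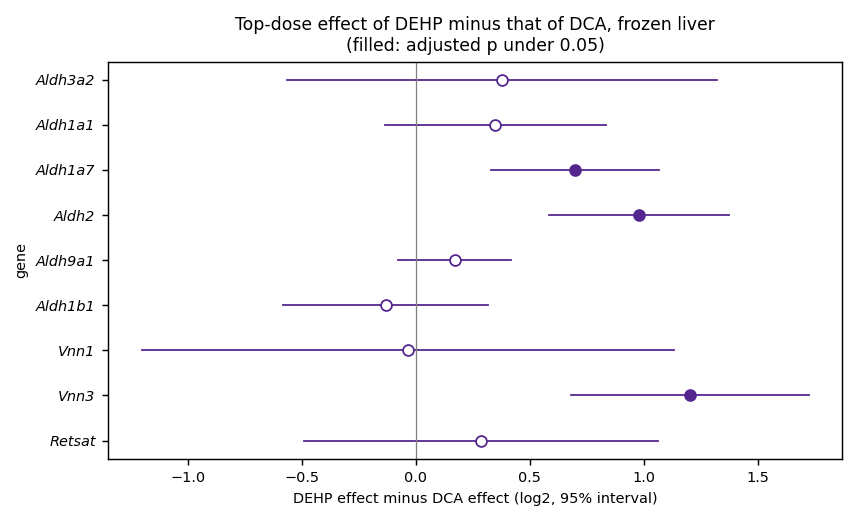
Effect of 6000 ppm DEHP minus effect of 3.5 g/L DCA on each gene in frozen liver (log2, 95% interval). Filled points passed an adjusted p of 0.05, namely Aldh1a7 at 0.70, Aldh2 at 0.98 and Vnn3 at 1.20.

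The FFPE blocks of the DEHP animals gave the same calls by dose as frozen tissue. At 1500, 3000 and 6000 ppm 7 of 9 genes were higher, beside 4.55%, 6.15% and 7.94% of all 13581 genes (5.86%, 9.39% and 12.4% in either direction), and Aldh2 and Aldh1b1 were not called. All 4 libraries at 1500 ppm were above every control for Aldh2 too (539.6 to 644 CPM at 1500 ppm, against 383 to 534 CPM in controls), as for 8.9% of all genes. The median of the 9 genes was 1.09, 1.34 and 1.37, against -0.02, -0.02 and -0.01 over all genes. At 6000 ppm the log2 fold changes were 3.90 ± 0.36 for Aldh3a2, 4.03 ± 0.53 for Vnn1, 3.25 ± 0.32 for Retsat, 1.42 ± 0.16 for Aldh1a1, 1.37 ± 0.15 for Aldh1a7, 1.32 ± 0.18 for Vnn3 and 0.76 ± 0.12 for Aldh9a1 (edgeR adjusted p of 0.000643 or less), and Vnn1 was at 5.27 ± 0.30 without control 32A. Aldh3a2 had 572, 1409, 1262 and 1456 CPM at 6000 ppm and 149, 73.1, 43.7 and 48.1 CPM in controls. Within shared runs all 4 of these libraries were 3.29 to 5.01 log2 units above the controls of their run. A straight line on dose was called for 2 of 9 genes, Aldh1a1 and Aldh1a7, beside 3.59% of all genes, with 7 called without 29B or with run as a term and none without 32A, 63A or 44A. Between neighbouring doses 0 of 9 were called, beside 0% of all genes, with 0 at an unadjusted p under 0.05 in edgeR. DESeq2 called 0 of the 8 genes it tested in those steps and had 1 at an unadjusted p under 0.05.

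Levels themselves differed between preparations of the same DEHP animals. With the animal as block, 7 of 9 genes were lower in FFPE, beside 30.7% of all 14065 genes lower and 62.8% in either direction. The median of the 9 genes was -0.32, against 0.02 over all genes. Vnn3 differed most (-0.83 ± 0.06), then Aldh1a1 (-0.56 ± 0.04), Aldh1a7 (-0.55 ± 0.03) and Retsat (-0.47 ± 0.05), and Aldh3a2 differed by -0.16 ± 0.03 (edgeR adjusted p of 0.000574 or less). Aldh1a1, Aldh1a7, Vnn1, Vnn3 and Retsat were lower in FFPE in 16 of 16 animals. The differences per animal ran from -1.21 to -0.41 for Vnn3 and from -0.86 to -0.39 for Aldh1a1, while the median over all genes ran from -0.03 to 0.05. Aldh2 went both ways, lower in FFPE in 7 of 16 animals, and Aldh9a1 in 11 of 16, and neither was called. Without the animal as block, 4 of 9 were called. Lobes differ between the preparations and cannot be told apart from fixation.

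No difference in the dose effect itself was called between preparations. For the effect of 6000 ppm in FFPE minus that in frozen tissue, edgeR called 0 of 9 genes and 0% of all genes, with 0 at an unadjusted p under 0.05. The intervals ran from -0.28 to 0.13 for Aldh3a2, from -0.13 to 0.41 for Vnn1 and from -0.11 to 0.49 for Retsat.

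**Figure D5:**
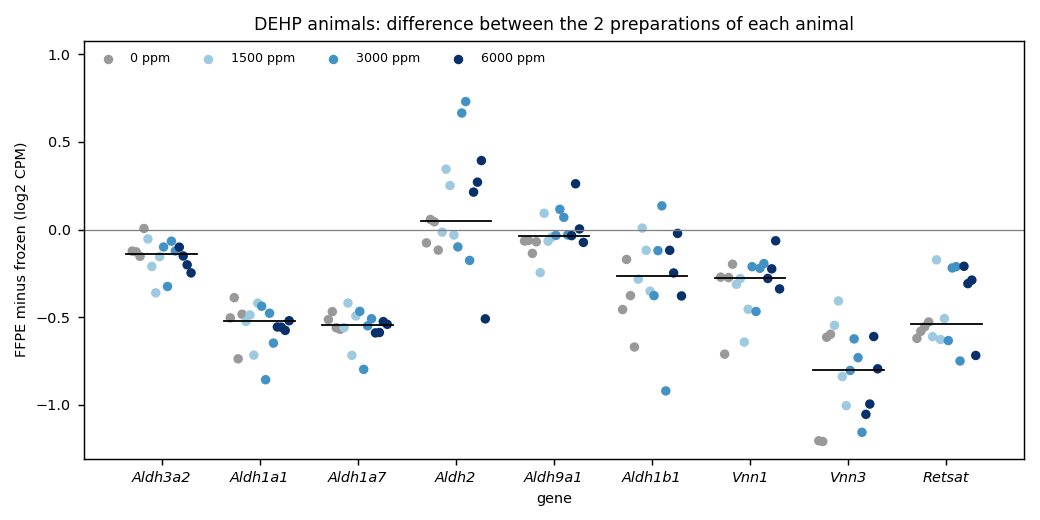
FFPE minus frozen level of each gene in each of the 16 DEHP animals (log2 CPM, both preparations scaled together), coloured by dose, with lines at medians. All 16 points lie below 0 for Aldh1a1, Aldh1a7, Vnn1, Vnn3 and Retsat, and the points of Aldh2 lie on both sides.

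The FFPE blocks of the DCA animals held far fewer reads, with totals of 109292 to 8434613. Vnn1 and Vnn3 did not pass the filter on low counts, and Vnn1 was at 0 counts in 3, 5, 5 and 2 of the 6 libraries at 0, 1, 2 and 3.5 g/L. Of the 7 genes tested, edgeR called 0 at any dose, beside 0.126%, 0.335% and 0.293% of all 4772 genes. At an unadjusted p under 0.05 there were 0, 1 and 1 genes, and DESeq2 called 0, 1 and 1. The median of the 7 was 0.52, 0.37 and -0.28, against -0.27, -0.67 and -0.68 over all genes. The gene past those thresholds was Aldh3a2, at 0 to 446 CPM at 3.5 g/L (median 287, 1 library at 0 counts) and 6.16 to 56.4 CPM at 0 g/L (median 32.9), a log2 difference of 2.92 ± 0.80 (edgeR adjusted p = 0.0738). Its line on dose was called (2.85 ± 0.75 over the dose range, edgeR adjusted p = 0.0439), 1 of 7 beside 0.356% of all genes, and the call was lost in 18 of 24 fits without 1 library, when run was added as a term (0.998) and under a stricter filter (adjusted p = 0.0981). Aldh2 stood at 0 to 120 CPM at 2 g/L (median 71.7) and at 136 to 186 CPM at 0 g/L (median 161), without overlap, as was so for 3.52% of genes, and was not called (-1.29 ± 0.80, edgeR adjusted p = 0.929). All controls carried run code V18431 and all libraries at 2 and 3.5 g/L carried W48315, so run and dose cannot be told apart there. Within run V18431 the 3 libraries at 1 g/L were 1.30 to 1.71 log2 units above controls for Aldh3a2 and below them in 3 of 3 for Aldh2. All 9 genes were lower in DCA FFPE than in frozen tissue, beside 72.5% of all 11526 genes lower and 73.5% in either direction, with a median of -1.88 against -1.90 over all genes, and 0 of 9 differed in their top-dose effect between preparations, beside 0.0607% of all genes and with 0 at an unadjusted p under 0.05. With DESeq2 size factors the median over all genes was -0.93 and that of the 9 genes -0.89, and 5 of 9 were called, without Aldh3a2, whose value then was 0.13.

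Other genes of the same routes were counted at the top doses in frozen liver. These lists were chosen with earlier results of these data known. The counts stand beside 7.05% of all genes higher and 4.72% lower at 6000 ppm DEHP, and 21.9% higher and 21.1% lower at 3.5 g/L DCA, and a count near these shares is no result about its list. Among other aldehyde dehydrogenases 10 had enough counts at 6000 ppm DEHP, of which 1 rose, Aldh5a1 of GABA breakdown (0.38 ± 0.11), and 1 fell, Aldh16a1 (-0.77 ± 0.14), with a list median of 0.08 against -0.03 over all genes. At 3.5 g/L DCA 9 were tested, 2 rose and 5 fell, with a median of -0.25 against -0.02. Of 30 retinoid genes, 6 rose and 3 fell under DEHP (median 0.03), including the aldehyde oxidases Aox1 (1.40 ± 0.16) and Aox3 (-1.37 ± 0.18) in opposite directions and the retinol dehydrogenase Rdh5 (-1.23 ± 0.24). Under DCA 14 rose and 7 fell (median 0.25), among them the retinol dehydrogenase Rdh16 (2.32 ± 0.15).

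Of 11 genes of fatty aldehydes and ether lipids, 2 rose and 0 fell under DEHP (median 0.05), among them Hacl1, which releases a fatty aldehyde in the breakdown of branched acids (0.91 ± 0.21), and 5 rose and 2 fell under DCA (median 0.10). In the route of pantothenate, coenzyme A, cysteamine and taurine, 5 of 19 rose and 5 fell under DEHP (median 0.16), while 9 rose and 4 fell under DCA (median 0.16). Pank1, which makes the first committed step to coenzyme A, rose under both, by 0.92 ± 0.16 and 1.36 ± 0.13, and Cdo1, which oxidises cysteine, was lower under both (-1.17 ± 0.20 and -0.64 ± 0.08). Of 13 genes of ethanol and small aldehydes 4 rose and 1 fell under DEHP (median 0.08), and 6 rose and 1, Cyp2e1, fell under DCA (median 0.17), where 43% of all genes were called in either direction. Of 12 genes of carnitine, choline and polyamine aldehydes, 4 rose and 0 fell under DEHP (median 0.23), and 6 rose and 2 fell under DCA (median 0.28), with the carnitine transporter Slc22a5 at 2.25 ± 0.39 under DEHP and 2.46 ± 0.24 under DCA.

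Lists of nuclear receptor and NRF2 targets were counted the same way, beside 7.05% of all genes higher under DEHP and 21.9% under DCA. Of 25 PPAR alpha markers, 22 rose under DEHP (median 1.97) and 23 under DCA (median 1.54), with 0 lower. Among 18 CAR and PXR targets 11 rose and 0 fell under DEHP (median 1.44), and 10 rose and 2 fell under DCA (median 0.56). Among NRF2 targets 9 of 17 rose under DEHP (median 0.97) and 13 of 16 under DCA (median 1.40), with 0 lower.

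Some genes tracked single members closely across animals, which is a description in which dose is shared by all points. Over the 16 frozen DEHP libraries, Aldh3a2 was most like Ehhadh (r = 0.994), Eci1 (0.991) and Pctp (0.990), and these held over the 24 frozen DCA libraries with r of 0.988, 0.977 and 0.992. Vnn1 was most like Acot1 (0.996), Cyp4a10 (0.996) and Cyp4a31 (0.995), and Retsat like Acot1 (0.994), Cyp4a31 (0.991) and Ehhadh (0.990), with r of at least 0.932 for each of these pairs in DCA animals. For Aldh1a1 they were Hsd17b12, Cd36 and Entpd5, for Aldh1a7 Entpd5, Lclat1 and Impg2, and for Aldh9a1 Dlst, Ndufa10 and Clstn3, all at 0.967 or more. In DCA animals these had r of 0.821 to 0.961 with Aldh1a1, 0.707 to 0.895 with Aldh1a7 and 0.761 to 0.913 with Aldh9a1. Aldh2 was most like Ddrgk1, Haao and Apoe (0.916 to 0.918 under DEHP, 0.736 to 0.949 under DCA). Aldh1b1 had looser neighbours in Rab5c, H2-D1 and Ttyh2 (0.731 to 0.767), with r of 0.430, -0.037 and 0.139 under DCA. Vnn3 was most like Lamb3 (0.968) and Abcc3 (0.967) under DEHP, and these had r of 0.199 and 0.329 with it under DCA.

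Among the 9 genes themselves, Aldh3a2, Vnn1 and Retsat had r of 0.982 to 0.991 with one another in DEHP animals and 0.975 to 0.983 in DCA animals. Vnn1 and Vnn3 had r of 0.937 in DEHP animals and 0.398 in DCA animals. Aldh2 had r of -0.103 with Aldh3a2 in DEHP animals and -0.706 in DCA animals.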

How the data were processed

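Liver RNA of 80 libraries was sequenced, 32 from DEHP animals and 48 from DCA animals. Expected counts per gene were deposited by the authors as RSEM tables, one per chemical, and the authors' FPKM tables were used for levels only. Reads were handled with CASAVA, STAR 2.4 and RSEM on mm10, per the submitters' processing notes. Expected counts were rounded to whole numbers, genes were filtered with filterByExpr at a minimum count of 10, libraries were scaled by TMM, and edgeR 4.0.16 (R 4.3.3, limma 3.58.1) gave quasi-likelihood tests with Benjamini-Hochberg adjustment over all genes tested at 0.05. Each chemical and preparation was fitted on its own, over all its doses. The line on dose is the log2 change over the whole dose range, and log2 CPM used a prior count of 2. Intervals are at 95%. FFPE and frozen libraries were compared with the animal as block, since the series text pairs them. Over genes, FFPE and frozen deviations of the same animal had a median r of 0.388 in DEHP and best matched their own animal in 13 of 16, with the weakest at 0.066 (35A). In DCA the median r was 0.0414, with 13 of 24 best matched. DEHP and DCA effects were compared in a joint fit of frozen libraries. DESeq2 1.42.0, other scalings, filters, count tables, run and lane terms, summed paralogs and leaving out each library were alternatives, and those on lanes L3 and L4, on run V18431 and on animals 35A and 67C were chosen after seeing the data. Scripts were tested on simulated counts. The members and the gene lists were chosen with earlier results of these data known. Genes named from a list are among up to 2 called genes of smallest adjusted p in each direction, and the likeness rule took, per member, the 3 other genes of highest Pearson r of log2 CPM over frozen DEHP libraries, among genes whose mean there was 2 or more. RPKM tables were not used here. Some genes these rules would name are not reported here.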

Additional observations from a re-analysis of the deposited data

Results flagged for a closer look

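Of 142 groups of 4 or 6 libraries, 17 had a library at an end far from the others. Distance was the gap from that library to its nearest neighbour over the range of the group. Chance gives such a library in about 1 in 20 groups. Values are log2 CPM. Animal 29B at 6000 ppm DEHP was low for Aldh1a1 (9.65) and Aldh3a2 (9.16) in FFPE and for Aldh1a1 (10.30) and Vnn1 (7.28) in frozen tissue. Aldh2 was low in FFPE of 8C at that dose (8.58). At 3000 ppm in FFPE, Aldh1a1 was high in 35A (10.38) and Vnn1 low in 67C (7.13), and at 1500 ppm in frozen tissue Vnn1 was high in 60A (7.56).

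In frozen tissue of DCA animals, animal 78 at 2 g/L was low for Aldh1a7 (7.47) and Aldh9a1 (7.57), and animal 101 at 3.5 g/L was low for Vnn3 (4.43). In the shallow DCA FFPE libraries, Aldh1a7 was low in animal 6 at 0 g/L (3.18), and in animal 3 at 0 g/L Aldh1b1 was at 0 counts (0.14) and Retsat at 1 count (1.33). Vnn1 was high in animal 51 at 1 g/L (4.19, 34 counts). Aldh1a1 was at 0 counts in animal 76 at 2 g/L (0.14), and Aldh2 was at 0 counts in animal 101 at 3.5 g/L (0.14).

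The effect of 6000 ppm DEHP minus that of 3.5 g/L DCA differed from 0 in frozen liver for Aldh1a7 (0.70), Aldh2 (0.98) and Vnn3 (1.20), by the edgeR test of the difference itself.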

How the results depend on the processing

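Of 6464 recomputed values, 6357 kept their side of the threshold, and 163 of these changed sign without being past it in either fit. A further 64 fell below the threshold, 40 passed it, and 3 changed sign while past it in at least 1 fit, the main or the recomputed. Those 3 were Vnn3 at 2 g/L (1.37) and 3.5 g/L DCA (1.55) in frozen tissue when the Vnn1 and Vnn3 rows were summed, by construction, and Aldh3a2 in DCA FFPE against frozen with DESeq2 size factors (0.13), where the cause was not tested. The counts below are of the 9 genes. In DCA FFPE at 2 g/L, 0 became 1 with DESeq2 and with its size factors, and at 3.5 g/L 0 became 1 with these, with only the 2 groups compared and with the authors' other count tables, Aldh3a2 in each. The DCA FFPE line went to 0 with run as a term and with a stricter filter. DCA FFPE against frozen had 9 and, with size factors, 5. At 1 g/L DCA in frozen tissue 2 became 4 with only the 2 groups and 1 with run as a term. Between 3.5 and 2 g/L 1 became 0 with only the 2 groups, 2 within lane L4 and 4 without lane L3. The line on DEHP dose went from 2 to 7 in FFPE and to 0 in frozen tissue with run as a term.

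Without the animal as replicate block, DEHP FFPE against frozen had 4 called in place of 7, and DCA FFPE against frozen 8 in place of 9, without Aldh3a2 (-0.47, adjusted p = 0.162). The replicate numbers in the DEHP titles do not pair animals (r of -0.27 to 0.13, 2 of 12 pairs over 0.1), and a replicate block on them left the frozen steps between doses at 0 called.

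Leaving out 1 library at a time gave 0 to 7 for the DEHP line in FFPE and 0 to 7 in frozen tissue, 0 to 1 for the DCA FFPE line, 0 to 1 for DCA FFPE at 3.5 g/L, 1 to 3 for DCA frozen at 1 g/L, 0 to 1 for 3.5 against 2 g/L, 7 to 8 for 2 against 1 g/L, 7 to 8 for the DCA frozen line and 7 to 8 for DEHP FFPE against frozen. The other counts did not move.

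DESeq2 size factors moved the median of all genes by more than 0.1 only in comparisons with DCA FFPE, by 0.41, 0.69 and 0.75 at 1, 2 and 3.5 g/L. Of the calls there over all genes, 75.0% were higher at 2 g/L with TMM and 86.4% with size factors, and at 3.5 g/L 71.4% and 86.4%. For the line they were 47.1% and 80.0%, and for the top-dose effect in FFPE minus frozen 57.1% and 72.7%. Total counts were lowest in DCA FFPE.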
